A study of Mus musculus with 15 samples.

Results

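The genes described here are the cytosolic ribosomal protein genes measured in whole mouse ovary. They were taken by name from a table of 24656 genes: symbols beginning Rpl, Rplp or Rps and followed by a number, and Rpsa, without rows named as pseudogenes (-ps) and without the Rps6k kinases. The pattern named 92 genes, and 90 of them reached 10 in 5 or more of the 15 libraries, as 17569 genes did in all. Rpl10l and Rpl39l, copies known from testis, did not. Of the 90 members, 52 were counted by name with the large and 38 with the small subunit. They comprise 77 genes for proteins of the ribosome itself, called core members here (46 large, 31 small), 12 paralogues and gene copies with names of their own (6 large, 6 small), and Rps19bp1. The last encodes a protein that binds RPS19 and is not a ribosomal protein, but it is kept by its name in all small subunit counts and medians over the 38.

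The mice were UM-HET3, a stock bred from a cross of several inbred strains, in which every animal carries its own mix of alleles. At 6 months of age they were assigned at random to 3 groups of 5: control mice examined at 6 months (6-month controls), control mice examined at 12 months (12-month controls), and mice given canagliflozin, an inhibitor of the glucose transporter SGLT2, for 6 months and examined at 12 months (canagliflozin mice). All groups share the stock and the tissue, polyadenylated RNA was sequenced from 1 ovary per mouse, and the labels describe the RNA extraction for the 12-month groups only and name no batch. In whole tissue, fewer cells of a type and less RNA per cell cannot be told apart.

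A ribosome carries one copy of nearly every one of these proteins, so their genes are expressed together and at high level in almost all cells. Their messenger RNAs start with a run of pyrimidines, the 5′ terminal oligopyrimidine tract, through which the growth-controlling kinase complex TORC1 acts on their translation. In the ovary, growing oocytes store ribosomes for the embryo, and dividing granulosa cells and steroid-producing luteal cells make much protein. Ribosomal protein messages have also been copied back into the genome many times, which has left most of the genes with processed copies elsewhere that are nearly the same in sequence.

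Depth ran from 8.47 to 13.6 M reads (M, 1000000) per library, as recovered from the table, the lowest in canagliflozin replicate 2. A much lower read depth stands in the labels' protocol, which disagrees with the table. The markers listed for granulosa, luteal and oocyte cells were present in every library: summed over 6 granulosa genes the normalised value was 16049 to 53666, over 7 luteal genes 137035 to 335085 and over 9 oocyte genes 1294 to 3199. Striated muscle, listed as a neighbouring tissue, summed to 14.9 to 42.0 over 5 genes. No listed marker was at 0 in all libraries.

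To show why a read cannot always be given to one of these genes, 60-base coding stretches of 5 members are set beside the same stretch of a copy. They come from the GENCODE M21 transcripts of the reference strain (build GRCm38), run 5′ to 3′, and hold in capitals every base at which the rows of a set differ. For each set the first stretch with the most differing bases was taken: from coding base 1 to 60 of Rps7, from 395 to 454 of Rpl29, from 118 to 177 of Rpl26, from 388 to 447 of Rplp0 and from 1 to 60 of Rps27.
Rps7: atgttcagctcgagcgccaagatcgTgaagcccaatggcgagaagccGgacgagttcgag
Gm6472: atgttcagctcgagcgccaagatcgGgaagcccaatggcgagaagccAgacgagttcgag
Rpl29: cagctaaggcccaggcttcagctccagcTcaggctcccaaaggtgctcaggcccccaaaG
Gm8210: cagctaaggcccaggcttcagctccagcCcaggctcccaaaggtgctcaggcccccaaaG
Gm6344: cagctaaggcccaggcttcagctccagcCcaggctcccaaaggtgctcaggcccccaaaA
Rpl26: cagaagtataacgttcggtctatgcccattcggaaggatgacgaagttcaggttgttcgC
Gm15772: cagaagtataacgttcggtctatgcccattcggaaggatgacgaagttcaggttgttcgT
Rplp0: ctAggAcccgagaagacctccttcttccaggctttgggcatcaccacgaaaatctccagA
Gm8730: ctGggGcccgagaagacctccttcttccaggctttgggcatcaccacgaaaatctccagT
Rps27: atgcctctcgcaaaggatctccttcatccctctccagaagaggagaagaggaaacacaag
Rps27rt: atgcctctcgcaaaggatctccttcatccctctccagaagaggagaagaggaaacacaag
Over the whole coding part, Gm6472 on chromosome X differed from Rps7 on chromosome 12 by 3 substitutions in 582 bases. Gm8210 on chromosome 1 and Gm6344 on chromosome 13 each differed from Rpl29 on chromosome 9 by 3 in 480, and Gm15772 on chromosome 5 from Rpl26 on chromosome 11 by 2 in 435. Gm8730 on chromosome 8 differed from Rplp0 on chromosome 5 by 12 in 951, and the coding parts of Rps27 on chromosome 3 and Rps27rt on chromosome 9 were the same in all 249 bases. A read lying between such positions matches both rows equally.

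Copies of this kind held more of the signal than the members did. A search of the annotated transcripts found 720 rows of the table with at least 90% identity to a core member over at least 150 bases and 50% of the shorter transcript; 681 are annotated only as pseudogenes, 495 passed the filter and 7 are themselves members. They belonged to 73 of the 77 core members. The core members held 1.95% ± 0.201 (SD, n = 5) of all signal in the 6-month controls, 2.12% ± 0.375 in the 12-month controls and 2.17% ± 0.408 in the canagliflozin mice. The copies held 3.06% ± 0.209, 3.30% ± 0.512 and 3.30% ± 0.686, so that 61.1% ± 1.29, 61.0% ± 1.14 and 60.3% ± 0.704 of the joint signal lay at copies. The groups overlapped in this split, which ran from 59.4% to 62.8% over all libraries. In all, 8 copies shared their values in every library with another copy of the same gene, and each such set was counted once.

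The split differed widely between members. For 51 core members over 50% of the joint signal lay at copies. For Rps27 it was nearly all: the member itself held 1.86%, at 95.1 to 137 in the 15 libraries, while Rps27rt measured 4826 to 7420.0. Rpl23a held 2.35%, Rpl17 2.90%, Rps7 3.84%, Rpl10 4.98% and Rpl5 5.66%. At the other end Rplp2 held 99.9% and Rpl32 94.6%. A member's own row is therefore close to the whole signal for 10 core members, those above 90%, and a small part of it for 13, those under 10%.

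**Figure D1:**
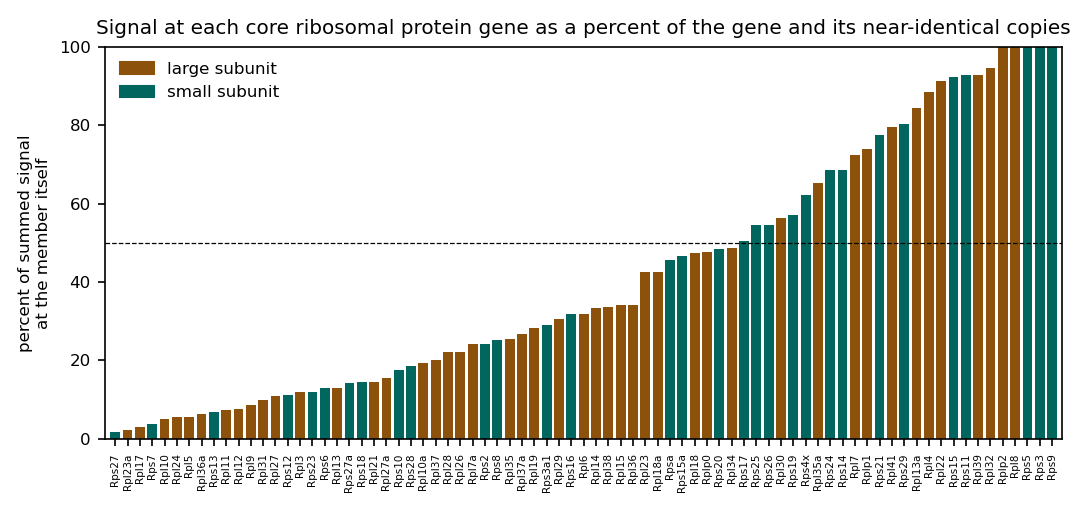
Bars give, for each of the 77 core members, the percent of the signal summed over the member and its near-identical copies, in all 15 libraries, that was counted at the member itself; brown is the large and green the small subunit, and the dashed line marks 50%. The bars run from 1.86% for Rps27 to 100% for the 4 members with no copy, and 51 lie below the line.

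Levels were compared between members per length. Per kilobase of the shortest coding transcript, Rps3 (21615), Rpl13a (19287) and Rps15 (18508) were the highest of the 83 members with such a transcript, and Rpl5 (338), Rps19bp1 (341) and Rps27 (344) the lowest, a range of 64.0-fold around a median of 3177. RPL5 is the protein that carries 5S ribosomal RNA into the large subunit, and its row held 5.66% of the signal of its family (2045 bases were used as its length). With the copies added, the 77 core members spanned 16.8-fold in value per kilobase. The shortest annotated coding transcript, 489 bases for Rps3, need not be the one expressed.

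Large subunit genes took 1.14% ± 0.123 (SD, n = 5) of all signal in the 6-month controls, 1.23% ± 0.208 in the 12-month controls and 1.28% ± 0.239 in the canagliflozin mice. Small subunit genes took 1.03% ± 0.102, 1.14% ± 0.201 and 1.13% ± 0.222. The libraries of the 3 groups overlapped for both subunits. In the canagliflozin mice the large subunit share was 1.57%, 0.944%, 1.44%, 1.25% and 1.21% in replicates 1 to 5, so that this group held both the highest and the lowest of the 15 libraries. In the 12-month controls it was 1.14%, 1.34%, 1.51%, 1.17% and 0.969%, and in the 6-month controls 1.13%, 1.13%, 1.30%, 0.963% and 1.20%. The subunits moved together from mouse to mouse: the ratio of large to small lay between 1.04 and 1.20 in every library, with group means of 1.12 ± 0.0653, 1.08 ± 0.0386 and 1.14 ± 0.0445. Transcripts of the mitochondrial genome took 2.72% to 3.19% of the signal in the 6-month controls, 3.70% to 4.46% in the 12-month controls and 4.84% to 9.37% in the canagliflozin mice. As a share of the signal outside them, the members of both subunits took 2.24% ± 0.224, 2.46% ± 0.432 and 2.61% ± 0.522.

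**Figure D2:**
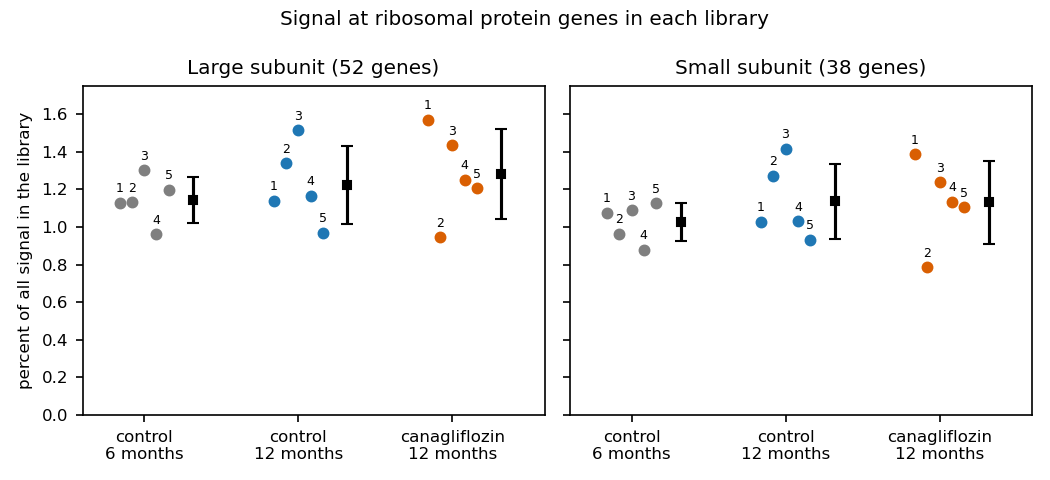
Points give the percent of all signal in a library held by the 52 large (left) and 38 small (right) subunit genes, with the replicate number above each point; squares and bars give the mean and SD of 5 libraries. Canagliflozin replicates 1 and 2 stand at the top (1.57%) and bottom (0.944%) of the large subunit panel, and all groups overlap.

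In some libraries most members shifted together. In others they did not: 40 of 90 were above their own mean over the 15 libraries in canagliflozin replicate 5 (median -0.007 on the log2 scale). The count was 45 in 6-month control replicate 3 (-0.001) and 35 in 6-month control replicate 5 (-0.06). In canagliflozin replicate 1, 83 of 90 members were above their own mean over the 15 libraries, by a median of 0.52 on the log2 scale. In canagliflozin replicate 2 only 7 were, with a median of -0.30, and in 12-month control replicate 5 and 6-month control replicate 4 only 3 and 7 were (medians of -0.32 and -0.35). The sums of core members and copies gave medians of 0.53, -0.34, -0.32 and -0.33 in the same libraries. Beside it, genes with short transcripts shifted too: the median over the fifth of all genes with the shortest transcripts was 0.21 in canagliflozin replicate 1, -0.09 in 12-month control replicate 5 and -0.19 in 6-month control replicate 4, but 0.02 in canagliflozin replicate 2. The part of transcript length in the members' shift between libraries was not tested.

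Against this common shift, 6 members switched between a high and a low level from mouse to mouse in every group, with a gap of over 1 on the log2 scale between the lower and the upper libraries and at least 3 libraries on each side. This was 6.67% of the members, against 241 of all 17569 genes tested (1.37%), or 18 of the 5821 with a mean of at least 500 (0.309%), these 6 included. These members were chosen by this pattern, and the values are a description.

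RPL29 is a small basic protein at the surface of the large subunit. Rpl29 measured 83.4, 83.6, 2109.7, 58.5 and 1744 in replicates 1 to 5 of the 6-month controls. It measured 1779.6, 2299, 87.2, 1735 and 71.2 in the 12-month controls, and 3327, 1606, 2669.7, 2488 and 88.1 in the canagliflozin mice. The 6 low libraries lay 18.0-fold below the lowest of the other 9, and each group held both kinds, 3 low among the 6-month controls, 2 among the 12-month controls and 1 among the canagliflozin mice. The copy Gm8210 ran the opposite way: its 6 highest libraries, at 1421 to 2025, were the 6 in which Rpl29 was low, and it measured 216 to 436 in the other 9. The copy Gm6344 ran with the member, at 0.95 to 21.1 in the same 6 libraries and 565 to 1039 in the others. Summed with all 36 copies, the Rpl29 family varied 2.39-fold over the 15 libraries, against 56.9-fold for the Rpl29 row.

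RPL26 binds near the exit of the peptide tunnel of the large subunit. Rpl26 measured 1447, 82.7, 1477, 1340.4 and 1589 at 6 months, 2275, 123, 2729.7, 2312 and 107 at 12 months untreated, and 4753, 1570.3, 202, 216 and 118 in the canagliflozin mice. The low libraries numbered 1, 2 and 3. For Rpl21 the values were 1496, 1414, 1592, 151 and 169, then 1869, 2103, 2817, 163 and 149, and then 164, 1245, 163, 202 and 1814, with 2, 2 and 3 low libraries. Low libraries were at most 216 for Rpl26 and 202 for Rpl21, and the others at least 1340.4 and 1245. In each case every group held both kinds. The sums with copies varied 3.21-fold for Rpl26 and 1.95-fold for Rpl21. The copy Gm15772 mirrored Rpl26 less fully than Gm8210 did Rpl29: 4 of the 6 low libraries were among its 6 highest. It measured 3106 to 7338 in the low libraries and 2023 to 5167 in the others, which overlap.

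In the small subunit, Rps2, which encodes a protein near the entry of the messenger RNA channel, measured 10066, 512, 6027, 393 and 6179 in the 6-month controls. It measured 4646, 6559, 5672, 409 and 3361 in the 12-month controls, and 6119.9, 3119.7, 407, 8328 and 5147 in the canagliflozin mice. Only 4 mice were low, in all 3 groups, and the sum with its 41 copies varied 1.80-fold. Of these 4 libraries, 3 were among the 4 highest for the copy examined. Rps18 measured 286 to 546 in 7 libraries and 2338 to 4388 in the other 8, with 3, 2 and 2 low libraries in the 6-month controls, 12-month controls and canagliflozin mice. Of the 7 low libraries of Rps18, 5 were among the 7 highest for its copy Gm10260 and 1 among the 7 lowest. Rps3a3, itself a gene copy of Rps3a1, measured 551 to 963 in 9 libraries and 2389 to 4045 in 6. Rplp0, the scaffold of the stalk that recruits elongation factors and a common reference gene in quantitative PCR, varied less, from 3897 to 11099. Its 5 lowest libraries were the 5 highest for the copy Gm8730, at 6938 to 10236 against 1675 to 5974 in the other 10, and the sum of the family was 12790.1 to 20641.

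**Figure D3:**
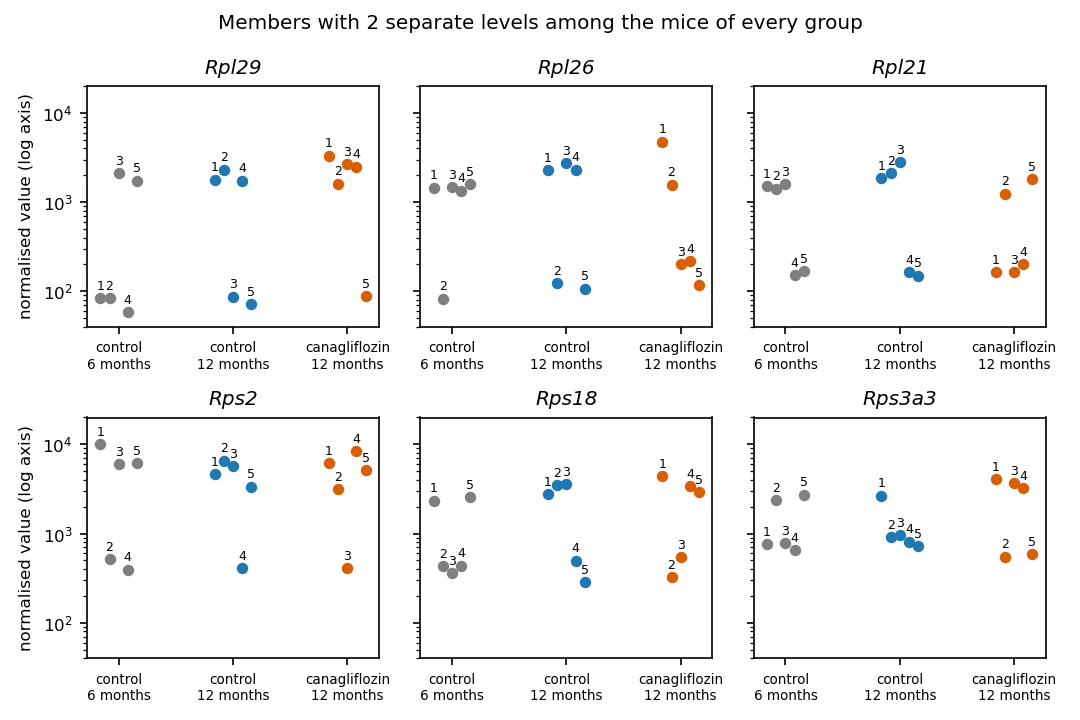
Each panel gives the normalised value of one member (log axis) in the 15 libraries, by group, with the replicate number above each point. In all 6 panels every group holds libraries at both levels, for Rpl29 at most 88.1 or at least 1606.

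The sums with copies had less of this spread. Of the 77 core rows, 5 had an SD over 1 on the log2 scale across the 15 libraries and none of the sums did. The largest SD of a sum was 0.486, and 49 of 77 sums had a smaller SD than the member's row. The 5 core members with 2 levels had standard errors of 0.961 (Rps18) to 1.43 (Rpl29) in every comparison, against a median of 0.164 over core members.

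The comparison of canagliflozin mice with 12-month controls asks what the drug did at the same age. By limma with Benjamini-Hochberg adjustment over 17569 genes, 0 of 90 members were called, against 1 of all genes (0.00569%). At an unadjusted p under 0.05 there were 4 members, 4.44%, against 9.20% of all genes. By edgeR 0 members were called among 9 genes (0.0512%), and 7 of 90 had an unadjusted p under 0.05, against 9.77% of all genes. By DESeq2 0 were called among 59 genes (0.336%), and 8 of 90 had an unadjusted p under 0.05, against 10.4% of all genes. The differences leaned upward all the same: 46 of 52 large and 33 of 38 small subunit genes were positive, with medians of 0.21 and 0.16 on the log2 scale, where 8719 of all 17569 genes were positive and their median was -0.00. No member had groups that did not overlap, against 0.586% of genes separate in the higher direction and 0.467% in the lower.

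Rpl39, a very small protein of the tunnel wall, measured 2849, 1368, 2260.3, 2076 and 1466 with canagliflozin and 1367, 1563, 1936, 1419 and 1084 without (log2 difference 0.41 ± 0.188, SE; limma adjusted p = 0.537). Rpl28 measured 3689.7, 1727, 2962, 2659.6 and 2015 against 1754, 2303, 2422, 1688 and 1615 (0.38 ± 0.177, limma adjusted p = 0.538). In both, replicates 1, 3 and 4 of the treated group were above every 12-month control, and replicates 2 and 5 were not. Of the small subunit genes, Rps26 measured 5667, 3377, 4197, 4495 and 3995 against 2977, 3886, 3861, 3019 and 2827 (0.38 ± 0.165, limma adjusted p = 0.514). Rps3a2, a copy of Rps3a1, went the other way, at 6368, 4052, 6863, 7252 and 6208 against 7601, 8377, 9060.3, 7705 and 6410.2 (-0.37 ± 0.152, limma adjusted p = 0.504). For Rps26 every treated mouse but replicate 2 was above the controls. Rpl13a (0.33) and Rps21 (0.27) followed, with limma adjusted p of 0.549 and 0.547. Beside Rps3a2, the differences farthest from the subunit medians were those of Rpl29 (1.23), Rpl35a (0.57) and Rps3a3 (0.71) above and Rpl21 (-0.89), Rpl26 (-0.46) and Rps4x (-0.16) below, with limma adjusted p of 0.562 to 0.923. Of these, Rpl29, Rpl21, Rpl26 and Rps3a3 are the members with 2 levels.

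The median rested on single mice. Without canagliflozin replicate 2 it was 0.32 for the large and 0.30 for the small subunit. In that fit 36 of 90 members had an unadjusted limma p under 0.05, against 12.5% of all genes, and still 0 were called. Without canagliflozin replicate 1 the medians were 0.10 and 0.07, and without 12-month control replicate 5 they were 0.13 and 0.06. Canagliflozin replicate 2, the least deeply sequenced library, had the lowest share of ribosomal protein signal of all. With each library corrected for its trend with transcript length and GC content, the medians were 0.10 and 0.08. The median difference over all genes fell from 0.12 in the fifth with the shortest transcripts to -0.07 in the fifth with the longest, and 74 of the 90 members are in the former group.

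**Figure D4:**
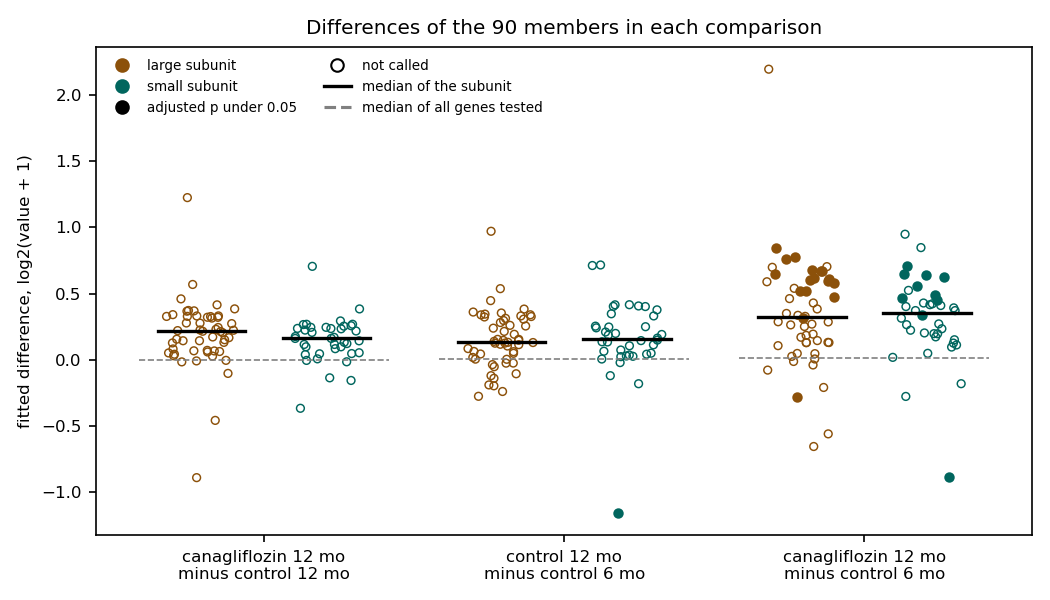
Points give the fitted difference of each of the 90 members on the log2(value + 1) scale in the 3 comparisons, large subunit in brown and small in green; filled points have an adjusted p under 0.05, black lines are the subunit medians and dashed lines the median of all genes tested. No point is filled on the left, 1 (Rps7) in the middle and 27 on the right.

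The comparison of 12-month with 6-month controls asks what changed with age. Here 1 member of 90 was called by limma, Rps7, which was lower (1.11% of members, against 7.01% of all genes called lower and 5.40% called higher). RPS7 is a small subunit protein that also binds the p53 regulator MDM2. Rps7 measured 521, 516, 356, 485 and 645 at 6 months and 167, 192, 223, 210.2 and 356 at 12 months, a log2 difference of -1.16 ± 0.202 (SE, n = 5 and 5, limma adjusted p = 0.00198). The groups did not overlap, but by little: the lowest value at 6 months was 356.48 and the highest at 12 months 356.03. In the canagliflozin mice it measured 221, 225, 273, 259 and 386. All 10 mice of 12 months thus lay at or below 386, and 4 of 5 mice of 6 months above it.

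The row of Rps7, however, held 3.84% of the signal of its family. The copy Gm6472, whose start is printed above, measured 6710.5, 6440.1, 7854, 5854 and 7434 at 6 months of age, against 7799, 7631, 9175, 7638 and 5705 at 12 months, and the groups overlapped. The sum of Rps7 and its 10 copies was 8489.7 ± 746 (SD, n = 5) at 6 months and 8683 ± 1099 at 12 months, a log2 difference of 0.03 ± 0.134 (limma adjusted p = 0.921). The fall was thus measured in the reads given to the member's own row. It was called in each of 26 alternative fits on that row, among them all those without 1 library, and in none of 17 with the copies summed. With 3.84% of the family signal in the row, a fall of the row alone could barely move the sum. The fits with copies summed therefore do not test the row.

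Members leaned upward with age as well, 75 of 90 positive, with medians of 0.14 (large) and 0.16 (small), against 0.00 over all genes. With the correction for length and GC content the medians were 0.10 and 0.07. At an unadjusted p under 0.05 there were 7 members, 7.78%, against 27.4% of all genes. The largest fitted differences were those of 2-level members, Rpl29 at 0.97 ± 1.43 and Rps18 at 0.72 ± 0.961. Next were Rps28 at 0.71 ± 0.454 and Rpl30 at 0.54 ± 0.260, with limma adjusted p of 0.337 and 0.196. Among all members 3 were separate in the higher direction, Rpl36al, Rpl38 and Rps19bp1 (3.33%, against 5.63% of all genes), and 1 in the lower, Rps7 (1.11%, against 8.07%). Rpl9, which encodes a protein near the stalk base, differed by -0.28 ± 0.0937 (limma adjusted p = 0.0649). Rpl36al (0.31), Rpl23a (0.34), Rps23 (0.42) and Rps19bp1 (0.41) had limma adjusted p of 0.153 to 0.180, and Rplp0 (-0.24) and Rps3a3 (-0.18) were the second lowest of their subunits, after Rpl9 and Rps7. Both median values moved with single mice, to 0.05 and 0.09 without 12-month control replicate 3 and to 0.22 and 0.23 without replicate 5.

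The comparison of canagliflozin mice with 6-month controls joins age and drug, and uses the same libraries as the other comparisons: each difference is the sum of the corresponding differences above. Here 27 of 90 members were called by limma, 25 higher and 2 lower, against 28.4% of all genes. This was 27.8% of members in the higher direction, against 13.5% of all genes, and 2.22% in the lower, against 14.9%. In the large subunit 16 of 52 rose and 1 fell, and in the small subunit 9 of 38 rose, Rps19bp1 among them, and 1 fell. The medians were 0.32 and 0.35, against 0.01 over all genes, and 0.17 in both subunits with the correction for length and GC content. With that correction 13 members were called higher and 4 lower. This was 14.4% in the higher direction against 12.4% of all genes, and 18.9% in all against 27.8%, so the share of members was then close to or below that of all genes. Rescaled to the same total of reads, which put the median of all genes at -0.09, 12 members were called higher and 4 lower. This was 13.3% in the higher direction against 9.23% of all genes, and 17.8% in all against 29.7%.

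Rpl36al, an intronless copy of Rpl36a that is expressed in its own right, measured 1781, 1637, 1847, 1570.2 and 1732 in the 6-month controls and 2922, 2002, 3392, 2756 and 1996 in the canagliflozin mice (0.58 ± 0.135, limma adjusted p = 0.00492). Rpl39 measured 1217, 1159, 1289.6, 923 and 1146 against the treated values given above (0.76 ± 0.188, limma adjusted p = 0.00724). Rpl31, which lies at the tunnel exit, measured 517, 469.7, 506, 435 and 570.1 against 1201, 583, 876, 829.7 and 638 (0.68 ± 0.179, limma adjusted p = 0.0102). In all 3 the groups did not overlap, and in all 3 the 12-month controls lay between, with means of 2126, 1474 and 651. These 3 were called in each of 43 alternative fits, those with the copies summed included.

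Among the other members named by p, Rpl23a (0.62), Rpl17 (0.67), Rpl37 (0.84) and Rpl38 (0.78) in the large subunit also did not overlap between the groups. The rows of Rpl23a and Rpl17 hold 2.35% and 2.90% of their families, whose sums differed by 0.35 and 0.42 (limma adjusted p of 0.0458 and 0.0600), and these rows or sums were called in 30 and 27 of 43 alternative fits. Rps29, a zinc-binding protein of the small subunit head, rose by 0.46 ± 0.136 and Rps10 by 0.71 ± 0.212 (limma adjusted p of 0.0188 and 0.0212). The row of Rps10 holds 17.6% of its family, and its sum with copies, at 0.41, was not called (limma adjusted p = 0.0750). In all 7 large and 1 small subunit genes were separate in the higher direction, 8.89% of members against 8.05% of all genes. In the lower direction they were Rpl9 and Rpl7l1, 2.22% against 10.4%. Rps7 was lower by 0.89 (-0.89 ± 0.202, limma adjusted p = 0.00423). The sum with its copies, of which the row is a small part, differed by 0.08 (limma adjusted p = 0.702) and cannot test the row. Rpl9, at 905, 838, 850.3, 805 and 887 against 712, 583, 786, 744 and 714, was lower by 0.28 (-0.28 ± 0.0937, limma adjusted p = 0.0343). That row is a small part of its family. The mean sum of Rpl9 and its copies was lower as well, at 9733 ± 539 (SD, n = 5) in the 6-month controls and 7894 ± 1242 in the canagliflozin mice. The libraries of these groups overlapped in the sum.

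How many members were called depended on which mice were included. It was 45 without canagliflozin replicate 2 (of 90, against 29.3% of all genes). It was 10 without canagliflozin replicate 3 (11.1% against 22.4%), and the 8 called higher were 8.89% of members, against 10.3% of all genes. It was 12, or 13.3%, without canagliflozin replicate 1 (23.9% of all genes), without 6-month control replicate 2 (23.2%) or without 6-month control replicate 4 (24.4%). Those called higher were 11.1%, 12.2% and 11.1% of members, against 11.2%, 10.6% and 11.5% of all genes. The number called was 14 (15.6%) without canagliflozin replicate 4 and 16 (17.8%) without 6-month control replicate 1, against 24.7% and 24.2% of all genes. In the higher direction they were 13.3% and 16.7% of members, against 11.4% and 11.3%. In all but the first of these fits the share of members called was thus below that of all genes. The other fits without 1 library went both ways. The share of members was above that of all genes without canagliflozin replicate 5 (36.7% against 30.3%) or without 6-month control replicate 3. It was also above without 12-month control replicate 2, 3 or 5. It was below without 6-month control replicate 5 (22.2% against 24.2%) and without 12-month control replicate 1 or 4. Markers of other cell types differed in the same comparison: 3 of 5 smooth muscle and pericyte genes, 2 of 6 theca and stroma genes and 1 of 9 oocyte genes were called lower, and 1 of 6 granulosa and 1 of 7 luteal genes higher. Of 7 immune cell genes 3 were called higher and 1 lower, of 4 fat cell genes 3 higher and 1 lower, and of 6 endothelial genes 2 higher and 1 lower. None of 5 red cell genes, 6 surface epithelium genes and 1 striated muscle gene tested was called. The summed smooth muscle markers were 12968 to 18758 in the 6-month controls and 7187 to 14919 in the canagliflozin mice, and the summed luteal markers 185101 to 261282 and 137035 to 335085. The part of cell composition in the members' differences was not tested.

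With every core member summed with its copies, 17 of 77 families were called higher and 2 lower (22 of the 83 rows then left for members), against 20 and 2 of the members' own rows, and 12 were called in both. All genes refitted in this way gave 28.7% called, 13.4% higher. The median over the families was 0.28, and 0.32 over the same 77 rows. Rpl26 shows what the sum changes: its row was lower by 0.66 ± 1.29 in the fit, while its family, at 3665 to 5002 in the 6-month controls and 4361 to 11777 in the canagliflozin mice, was higher by 0.70 ± 0.222 (limma adjusted p = 0.0276). Rpl21 went from -0.56 to 0.35 and Rpl29 from 2.20 to 0.39, neither called. Rpl3, whose protein forms part of the peptidyl transferase centre, had a row with no call (limma adjusted p = 0.521) and a family that was lower by 0.52 (-0.52 ± 0.112, limma adjusted p = 0.00297), at 15451 to 18642 in the 6-month controls and 9839 to 13930 in the canagliflozin mice.

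**Figure D5:**
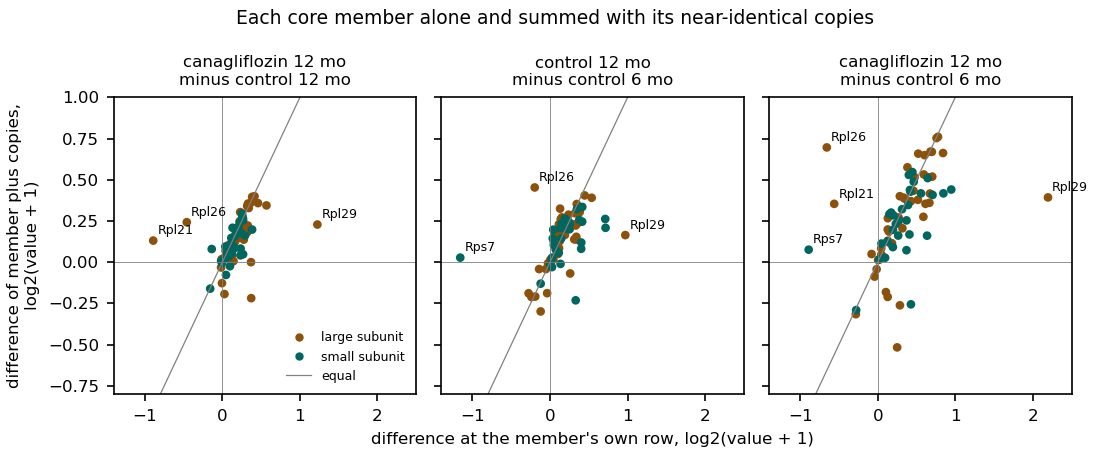
Each point is 1 of 77 core members, with its fitted log2 difference at its own row on the x axis and that of the member plus its near-identical copies on the y axis, in the 3 comparisons; the grey diagonal marks equal values, brown is the large and green the small subunit. Rpl21, Rpl26, Rpl29 and Rps7 lie far from 0 on the x axis, while all sums lie between -0.52 and 0.76.

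The paralogues differed from their parent genes in level, and in some cases in their ratio to them between groups. Rpl36al was counted at 10.4 ± 0.528 times the level of Rpl36a in the 6-month controls, 11.9 ± 1.66 in the 12-month controls and 12.8 ± 1.79 in the canagliflozin mice, and Rps27l at 6.49 ± 0.688, 6.95 ± 0.765 and 7.91 ± 0.478 times that of Rps27. Both parents are rows that hold under 10% of their family's signal, so these ratios are not ratios of protein. Rpl22l1, the paralogue that replaces RPL22 in some ribosomes, was at 0.193 ± 0.0309, 0.210 ± 0.00479 and 0.239 ± 0.0147 of Rpl22, a parent that holds 91.3% of its own signal. For this pair the canagliflozin mice, at 0.225 to 0.263, lay above all 12-month controls, at 0.205 to 0.217, and the 6-month controls, at 0.160 to 0.239, overlapped both. Rpl7l1, which acts in ribosome assembly, was at 0.138 ± 0.00524 of Rpl7 at 6 months, 0.115 ± 0.00810 at 12 months and 0.108 ± 0.0133 with canagliflozin. Every 6-month control lay above every mouse of 12 months for that ratio (lowest 0.134, highest 0.128). The row of Rpl7 ran from 6286 to 10459 over all libraries, and its sum with copies from 8784 to 14867. Only some of the 12 pairs are given here, and how often such ratios separate over other genes was not computed. Rps19bp1 measured 217 ± 14.6, 288 ± 34.6 and 351 ± 119, and was called between the outer groups (0.62 ± 0.191, limma adjusted p = 0.0229).

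Starts of 6 members named above are shown, because the pyrimidine tract is the feature that the family is known to share. They are 30-base windows around the annotated start from RefSeq (GRCm38.p6), with 15 bases on each side, and the tract is in capitals: a C within 5 bases of the start followed by at least 4 C or T.
Rpl39, chrX:37085208-37085237, minus strand: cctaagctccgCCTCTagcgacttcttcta
Rpl31, chr1:39367836-39367865, plus strand: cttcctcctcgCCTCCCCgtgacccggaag
Rpl28, chr7:4792950-4792979, plus strand: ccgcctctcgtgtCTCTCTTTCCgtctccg
Rps10, chr17:27635230-27635259, minus strand: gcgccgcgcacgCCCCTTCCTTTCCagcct
Rps26, chr10:128626492-128626521, minus strand: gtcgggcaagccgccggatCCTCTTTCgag
Rps7, chr12:28635939-28635968, minus strand: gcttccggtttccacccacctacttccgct
RefSeq gave promoters for 65 of the 90 members and for 57 of the 77 core members. Such a tract was in 29 of 67 promoters of core members (43.3%: 45.0% large, 40.7% small), against 19.9% of the promoters of genes tested and 18.3% of all 32851. In the window of Rps7 no C within 5 bases of the start opened such a tract. The motif CCGGAAG of the GABP type, on either strand, was in 37.3% of core member promoters (250 bases before to 50 after the start), in 15.6% of those of genes tested and in 8.86% of all. AAGATGGC, of the YY1 type, also on either strand, was in 10.4%, 4.00% and 2.75%. The motifs were searched separately, and matches may overlap. These counts describe letters near annotated starts, not use of a site.

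Fau, which falls outside the naming rule and encodes a ribosomal protein fused to a ubiquitin-like protein, was called higher in the canagliflozin mice than in the 6-month controls (0.42, limma adjusted p = 0.0435). Rack1, a scaffold on the small subunit head, was not (-0.10, limma adjusted p = 0.578). Of 18 elongation factors and other messages with a pyrimidine tract, 1 was called higher and 4 lower, with a median of -0.06, where 13.5% of all genes were called higher and 14.9% lower. Eef2, the translocating elongation factor, fell by 0.86 (-0.86, 46531 to 25798 in group means, limma adjusted p = 9.7e-05), and Eif4b by 0.72 (-0.72, limma adjusted p = 0.000116). Of 30 initiation factors 6 were called higher and 8 lower, of 38 ribosome biogenesis factors 3 and 3, and of 12 tested genes of the RNA polymerase I machinery 0 and 2. Of 22 genes of the TORC1 pathway and of regulators of these messages, 3 were called higher and 6 lower, among the latter Eif4ebp2 (-0.84, limma adjusted p = 0.000106) and Tsc2 (-0.47, limma adjusted p = 0.000472).

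With age alone, the same lists gave 3 lower and 0 higher for the elongation factors, 2 higher and 5 lower for the initiation factors, 0 and 0 for biogenesis, 0 and 1 for RNA polymerase I, and 1 and 5 for the TORC1 list, where 5.40% of all genes were called higher and 7.01% lower. Eef2 was already lower in the 12-month controls, by 0.65 (-0.65, limma adjusted p = 0.00168). Between canagliflozin mice and 12-month controls no gene of any of these lists was called by limma, and the smallest adjusted p was 0.438, of Eif3m. Near-identical copies of the listed genes were not summed.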

How the data were processed

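The deposited table gives a normalised signal per gene and library, computed by the authors. Partek 11.0 and mm39 are named per the submitters' processing notes; for aligner, counter, annotation release and normalisation: not given in the sources used here. In each library 99.99% to 100.0% of the deposited values were whole multiples of 1 step (tolerance 0.1 read), which gave back read counts; for 3 libraries the step is too near 1 to tell it from counts.

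Values were tested as log2(value + 1) with limma 3.58.1 (R 4.3.3) on all 15 libraries, for genes reaching 10 in 5 or more, with Benjamini-Hochberg adjustment at 0.05. The recovered reads were tested with edgeR 4.0.16 (9, 2224 and 5174 genes called for canagliflozin against 12-month controls, 12-month against 6-month controls, and canagliflozin against 6-month controls) and DESeq2 1.42.0. The scripts were tested on simulated data.

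Near-identical copies were found with blastn 2.17.0 in GENCODE M21 transcripts (GRCm38, another build than the authors' table; rows were matched by gene identifier). Replicates are separate mice. Members, lists and classes were chosen with earlier results of these data known; summing copies was added after seeing the data. Members described in full were those called (up to 10 by p), otherwise the 3 of smallest p per subunit, the 2 farthest above and below the subunit median, the 3 highest and lowest per kilobase, and paralogues; others were chosen after their values were seen. Some listed genes are not reported here. Alternatives were other pseudocounts, filters and scalings, a length and GC correction, a replicate block, fits on only the groups compared, and leaving out each library.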

Additional observations from a re-analysis of the deposited data

Results flagged for a closer look

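Of 99 sets of 5 values tested (28 members and the shares, by group), 4 held a library far from the others of its group; chance alone marks about 1 set in 20. Rpl26 measured 82.7 in 6-month control replicate 2, where the nearest library of that group was at 1340.4. Rps3a3 measured 2665 in 12-month control replicate 1, with the nearest at 963. Both are members with 2 levels. Rplp0 measured 6192 in canagliflozin replicate 1, with the nearest at 9428, and this is one of the libraries in which the copy Gm8730 was high. Rpl30 measured 2284 in 6-month control replicate 5, with the nearest at 1326.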

How the results depend on the processing

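Genes called between canagliflozin mice and 12-month controls numbered 1, and 59 with DESeq2, 9 with edgeR, 4 rescaled to equal read totals, 3 with the replicate block, 2 without a filter, and 0 with the length and GC correction (copies summed or not) or on only the groups compared; leaving out 1 library gave 0 to 37, also with copies summed. Members called in that comparison stayed at 0 in every alternative. With age, 1 member of 90 was called (1.11%, against 12.4% of all genes). DESeq2 gave 2 (2.22% against 16.8%), and so did the replicate block (2.22% against 12.1%). The length and GC correction gave 3 (3.33% against 10.6%), and fits on only the groups compared gave 4 (4.44% against 15.2%). Each of these shares was below that of all genes. With copies summed, corrected or not, 0 were called. Leaving out 1 library gave 1 to 2 (against 8.75% to 13.7% of all genes), and 0 to 1 with copies summed. Between canagliflozin mice and 6-month controls 27 were called (of 90, against 28.4% of all genes), and 17 with the length and GC correction (18.9% against 27.8%), 15 with copies summed as well (18.1% against 28.4%), 16 rescaled to equal read totals (17.8% against 29.7%), 31 with edgeR (34.4% against 29.4%) or the stricter filter (34.4% against 32.9%) and 39 with DESeq2 (43.3% against 32.8%); leaving out 1 library gave 10 to 45 (against 22.4% and 29.3% of all genes), and 8 to 45 with copies summed. With the near-identical copies and the -ps rows added, the large subunit share was 3.02%, 3.23% and 3.30%, and the small 2.04%, 2.23% and 2.22% (6-month controls, 12-month controls, canagliflozin).

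Signs turned mainly where copies were summed; beyond that construction the cause was not tested. The first 2 values after each name are those with copies summed, without and with the length and GC correction, and the range covers all fits without 1 library, copies summed or not. Against 12-month controls, Rpl21 (-0.89) came to 0.13 and 0.074 (-1.48 to 0.26), and Rpl26 (-0.46) to 0.24 and 0.12 (-1.25 to 0.42); the row of Rpl26 came to 0.075 without canagliflozin replicate 5 and 0.022 without 12-month control replicate 3. With age, Rps7 (-1.16) came to 0.028 and 0.0047 (-1.33 to 0.090), and Rps3a3 (-0.18) to 0.065 and 0.11 without 6-month control replicates 2 and 5 (-0.51 to 0.11). Between the outer groups Rpl21 (-0.56) came to 0.35 and 0.28 (-1.09 to 0.48), Rpl26 (-0.66) to 0.70 and 0.55 (-1.48 to 0.88), and to 0.21 with edgeR and 0.22 with DESeq2, and Rps7 (-0.89) to 0.076 with copies summed (-1.02 to 0.19). Both subunit medians stayed positive in every alternative.

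Over 15 same-numbered pairs the correlation of deviations ran from -0.30 to 0.25, over 0.1 in 3. Pairs with different numbers ran from -0.43 to 0.38. These correlations show no pairing by number, but cannot exclude one. With the replicate block 0, 2 and 28 members were called, among 3, 2126 and 4912 genes.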
